A study of Mus musculus with 5 samples.

Results

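MHC class II genes were described here as 7 genes of the 32285 listed in the files, taken from a fixed list: H2-Aa, H2-Ab1, H2-Eb1, H2-DMa, H2-DMb1, Cd74 and Ciita. All 7 were present in each of the 5 libraries, 1 row each. MHC class II molecules carry peptides from engulfed proteins to the cell surface, where CD4 T cells read them. H2-Aa pairs with H2-Ab1, and the H2-Eb1 chain belongs to the second kind of class II dimer. Cd74 is the invariant chain that guards the groove, H2-DMa and H2-DMb1 form the dimer that exchanges its remnant for peptide, and Ciita is the co-activator that switches the set on. Macrophages, dendritic cells and B cells are the usual carriers, and interferon gamma can induce the set in other cells.

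The libraries were single-nucleus RNA libraries of white adipose tissue from 10-week-old male mice on chow diet. Each of 5 depots was 1 library from pooled mice: SWAT is subcutaneous fat (6 mice), EWAT epididymal fat (6), MWAT mesenteric fat (10), NWAT fat of the perirenal depot (6) and HWAT fat around the heart (20). The protocol names C57BL/6J for all, while the strain field reads C57BL/7J, C57BL/8J and C57BL/9J for MWAT, NWAT and HWAT. Lymph nodes beside the depot were removed from SWAT and MWAT, per the labels. With 1 library per depot, differences between depots had no replicate and could not be tested. Differences between cell classes repeat over up to 5 libraries and were not tested, because the classes came from clustering the same nuclei, so no p-value is given. Every interval below is a 95% interval of counting error alone, exact Poisson for levels and exact binomial for shares and ratios, and depot, pool and library cannot be told apart.

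The deposited 12324 to 19770 nuclei per library gave 66249 retained nuclei in 44 clusters, of which 42 took a class name from marker genes. Median depth ran from 1195 unique molecular identifiers (UMIs) per nucleus in MWAT to 2551 in NWAT. Macrophage or monocyte-like nuclei numbered 1105 in SWAT, 1627 in EWAT, 552 in MWAT, 1150 in NWAT and 1200 in HWAT. All 10 of their markers were above 0 in every library, but they were also above 0 in adipocyte-like nuclei of every library. Being above 0 thus does not set the class apart, and these markers were used to name it. Their summed level was higher in macrophage-like than in adipocyte-like nuclei of every library. Among them Rbpj, Mrc1 and F13a1 were lowest in HWAT, while Lyz2 was highest there. B cell-like nuclei numbered 2465 in HWAT, 67 in NWAT and 63 in MWAT, and were under 50 in SWAT and EWAT. The 7 genes and the pathway lists were kept out of the clustering. Pairs of libraries shared 31 to 62 cell barcodes, at most 0.479% of the smaller library.

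Of the 7 genes, 5 lie within 197 kb of chromosome 17 on GRCm38. H2-DMa spans 34119541 to 34139101, H2-DMb1 34153072 to 34160230, H2-Ab1 34257689 to 34269419, H2-Aa 34282744 to 34287823 (minus strand) and H2-Eb1 34305867 to 34316674. Ciita lies on chromosome 16 at 10480059 to 10528418 on the plus strand. H2-DMa overlaps Brd2, a gene on the opposite strand, over 3094 bases, H2-Eb1 overlaps Gm20513 on the opposite strand, and Ciita overlaps Dexi on the opposite strand. Whether the counting used strand is not given in the sources used here, so reads from these overlaps cannot be assigned with certainty.

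The levels of the 7 genes moved together across the 51 class-by-library sums of at least 50 nuclei. The Pearson correlation of each gene with the sum of the other genes, on log2(CPM + 10), ran from 0.863 for Ciita to 0.994 for H2-Aa. CPM is UMIs per 1000000 UMIs of the nuclei summed, and the sums of 1 library share its depth and its free RNA. Because the genes moved together, their promoters are shown. Promoters of 4 of the 7 genes (H2-Aa, H2-Eb1, H2-DMb1 and H2-DMa) were matched in a table from RefSeq (GRCm38.p6), and those of H2-Ab1, Cd74 and Ciita were not used here. The 150 bases before the RefSeq start are printed, 5′ to 3′ along the gene. For H2-DMa and H2-DMb1 that start lies inside the GENCODE span given above, so their windows lie wholly or mostly within it. The letters are lower case, with capitals for GNAACT, part of the X box that RFX factors bind, and TGATTGG, the Y box sequence that NF-Y binds.
H2-Aa, chr17:34287824-34287973, minus strand: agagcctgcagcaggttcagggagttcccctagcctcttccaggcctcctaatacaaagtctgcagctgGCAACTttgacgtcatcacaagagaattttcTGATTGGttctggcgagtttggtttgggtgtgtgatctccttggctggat
H2-Eb1, chr17:34305717-34305866, plus strand: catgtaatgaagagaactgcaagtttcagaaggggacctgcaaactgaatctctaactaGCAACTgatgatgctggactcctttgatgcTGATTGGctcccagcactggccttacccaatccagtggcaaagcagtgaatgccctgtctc
H2-DMb1, chr17:34153041-34153190, plus strand: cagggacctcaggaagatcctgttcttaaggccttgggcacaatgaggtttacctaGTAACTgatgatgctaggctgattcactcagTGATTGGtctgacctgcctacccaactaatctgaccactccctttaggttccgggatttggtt
H2-DMa, chr17:34122682-34122831, plus strand: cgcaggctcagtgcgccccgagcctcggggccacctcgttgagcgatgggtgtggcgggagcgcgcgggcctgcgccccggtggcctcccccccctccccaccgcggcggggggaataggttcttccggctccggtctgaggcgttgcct

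H2-Aa, H2-Eb1 and H2-DMb1 each held GNAACT followed by TGATTGG, with 25, 24 and 25 bases between them. Searched on both strands in the 250 bases before the start, TGATTGG occurred in 7.23% of 32851 promoters and GNAACT in 37.3%. The pair in this order, 10 to 50 bases apart, occurred in 0.295% of them (97 promoters). Neither of the 2 H2-DMa promoters in the table held TGATTGG. The pattern was written after reading these promoters, so the match is a description.

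In macrophage-like nuclei, all 7 genes were by value highest in NWAT and next highest in MWAT, and 6 of 7 were lowest in HWAT. Some of the intervals overlapped, as given below. The summed level of the 7 genes was 16315 CPM in SWAT (16132 to 16499), 15065 CPM in EWAT (14931 to 15199.6), 18204 CPM in MWAT (17872 to 18540.3), 21576 CPM in NWAT (21396 to 21756) and 15209 CPM in HWAT (15047 to 15373). NWAT thus stood 1.43 times (1.41 to 1.45) above EWAT, and the HWAT and EWAT intervals overlapped.

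**Figure D1:**
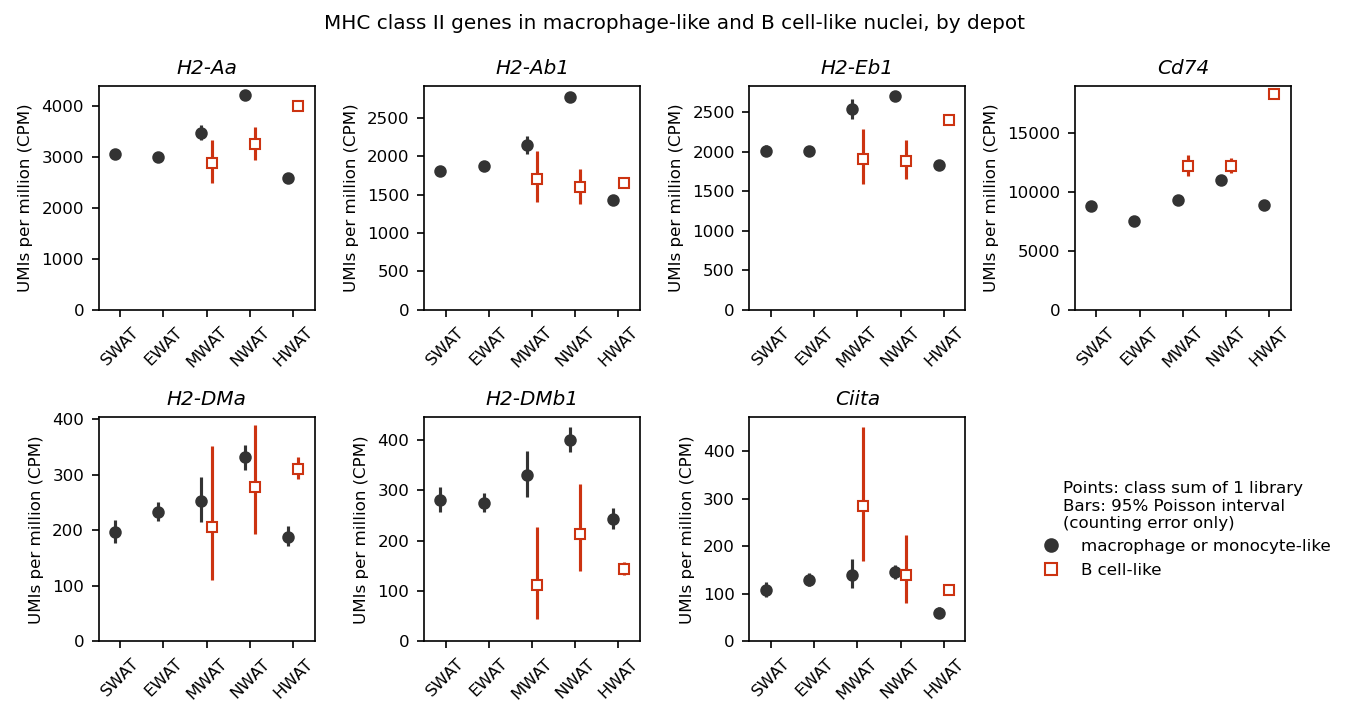
Level of each MHC class II gene in CPM (vertical axis, linear, from 0) in the 5 depots, as circles for macrophage or monocyte-like and squares for B cell-like sums of 1 library each, with 95% Poisson intervals as bars. The macrophage-like circles peak in NWAT for all 7 genes, and in HWAT the B cell-like square lies above the circle for every gene except H2-DMb1.

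The peptide-binding chains followed that order with small steps. H2-Aa measured 3049 CPM in SWAT, 2988 in EWAT, 3462 in MWAT, 4213 in NWAT and 2578 in HWAT. H2-Ab1 measured 1807, 1872, 2150.2, 2778 and 1428 CPM in the same order of depots. H2-Eb1 measured 2018, 2010.4, 2546, 2711 and 1830.1 CPM. For all 3 chains the SWAT and EWAT intervals overlapped, so those depots could not be ordered, and for H2-Eb1 the MWAT and NWAT intervals overlapped as well. NWAT over HWAT came to 1.63 (1.58 to 1.69) for H2-Aa, 1.95 (1.87 to 2.03) for H2-Ab1 and 1.48 (1.42 to 1.54) for H2-Eb1.

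Cd74, the invariant chain, is the member on chromosome 18. It measured 8855 CPM in SWAT, 7557 in EWAT, 9321 in MWAT, 10996 in NWAT and 8881 in HWAT, a highest-to-lowest ratio of 1.46 (1.43 to 1.48), close to that of H2-Eb1. It was the one gene of the 7 that was lowest in EWAT, and its SWAT and HWAT values could not be told apart. The peptide exchange genes kept the general order by value: H2-DMa measured 197, 233, 253, 331 and 188 CPM from SWAT to HWAT, and H2-DMb1 281, 275, 331, 401 and 244 CPM. For H2-DMa the SWAT and HWAT intervals overlapped, as did those of EWAT and MWAT. For H2-DMb1 the SWAT and EWAT intervals overlapped those of both HWAT and MWAT, so these depots could not be ordered.

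Ciita, the co-activator, showed the widest span. It measured 108 CPM in SWAT (93.8 to 124), 129 CPM in EWAT (117 to 143), 140.0 CPM in MWAT (112 to 172), 145 CPM in NWAT (131 to 160.5) and 59.9 CPM in HWAT (50.2 to 71.1). The HWAT value lay below the other 4 without overlap, while the EWAT, MWAT and NWAT intervals overlapped. Against the mean of the other depots on the log2 scale, Ciita in HWAT differed by -1.11, and it was the only one of the 35 gene-by-depot differences that reached 2-fold. Among all 13396 genes with at least 20 counts, 14.1% were 2-fold or more lower in HWAT macrophage-like nuclei and 6.85% higher. The 2-fold shares of all genes were 5.76% higher and 5.23% lower in SWAT, 5.30% and 3.52% in EWAT, 8.95% and 5.09% in MWAT, and 2.64% and 6.20% in NWAT, with 0 of the 7 genes past 2-fold in those 4 depots. The median log2 difference over the 7 genes was -0.40 in HWAT and 0.49 in NWAT, against -0.14 and 0.04 over all genes.

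Further genes of presentation were counted from lists. In NWAT, 0 of 9 further antigen-loading and accessory class II genes with enough counts differed by 2-fold, and their median was -0.03. In HWAT 3 of these 9 were higher and 1 was lower. Of 16 transcription factors and inducers of class II (such as Rfx5, Nfya and Irf8), 0 were higher and 1 was lower in NWAT, and likewise in HWAT. Of 10 class I presentation genes 0 reached 2-fold in either NWAT or HWAT, with medians of 0.24 and 0.28.

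The single HWAT value covered macrophage sub-clusters of very unlike class II level. Re-clustering the macrophage-like nuclei, again without the 7 genes, gave 11 sub-clusters. In HWAT, 876 of the 1200 nuclei fell in an unnamed sub-cluster led by Cxcl13, Marco and Vsig4, with Igkc and Jchain also among its leading genes (sub-cluster 1), whose summed level was 9529.6 CPM (9378 to 9683) with Ciita at 15.8 CPM on 25 counts. Another 97 nuclei were cavity macrophage-like (sub-cluster 6, with Alox15, Prg4 and Garnl3, genes of macrophages that live free in body cavities). They measured 1551 CPM (1391 to 1725) with 0 Ciita counts.

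At the other end, 118 HWAT nuclei of an unnamed sub-cluster led by S100a9, Bcl11a and Flt3 among others (sub-cluster 5) measured 60363 CPM (59255 to 61487), the highest sum of any sub-cluster and library examined. A further 42 HWAT nuclei of a sub-cluster led by Ear2 and Lyz1 (sub-cluster 4) measured 51849 CPM (50262 to 53473). In HWAT all 10 dendritic cell markers were above 0 in sub-clusters 5 and 1, where they summed to 1629.7 and 324 CPM. They summed to 552 CPM in sub-cluster 4 and 90.7 CPM in sub-cluster 6, with 6 and 5 of the 10 above 0. In NWAT sub-cluster 2, which was resident macrophage-like at 18364 CPM of the 7 genes, the dendritic markers summed to 1530.4 CPM. There 5 of the 10 were above 0, and Flt3, Xcr1, Clec9a, Ccr7 and Itgax were at 0. Macrophage markers of HWAT summed to 4077 CPM in sub-cluster 5, 10968 in sub-cluster 4, 14686 in sub-cluster 1 and 34597 in sub-cluster 6. The part of dendritic cells in the class II level of the macrophage-like class was not tested.

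The depot order depended on these sub-clusters. With sub-clusters 1 and 6 left out, a choice made after seeing the data, 227 HWAT nuclei (18.9%) remained at 45603 CPM (44940.0 to 46274), now the highest depot. Leaving out nuclei low in the 7 genes raises the level by construction. Of the 227, 118 were sub-cluster 5, 42 sub-cluster 4, 19 dendritic type 1-like and 20 resident sub-cluster 0. In SWAT, 663 of 1105 nuclei were sub-cluster 0, so the depots held unlike mixtures. In that setting NWAT stood at 23035 CPM, MWAT at 19577, SWAT at 16315 and EWAT at 15085, and all 7 genes were 2-fold or more higher in HWAT. HWAT stood at 8874 CPM at Leiden resolution 2 and at 8995 CPM when doublets were removed at the doubled rate, with 5 and 6 of the 7 genes 2-fold or more lower. The shares of all genes past 2-fold were not computed in these settings, so the counts of 7, 5 and 6 have no background to be read against.

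**Figure D2:**
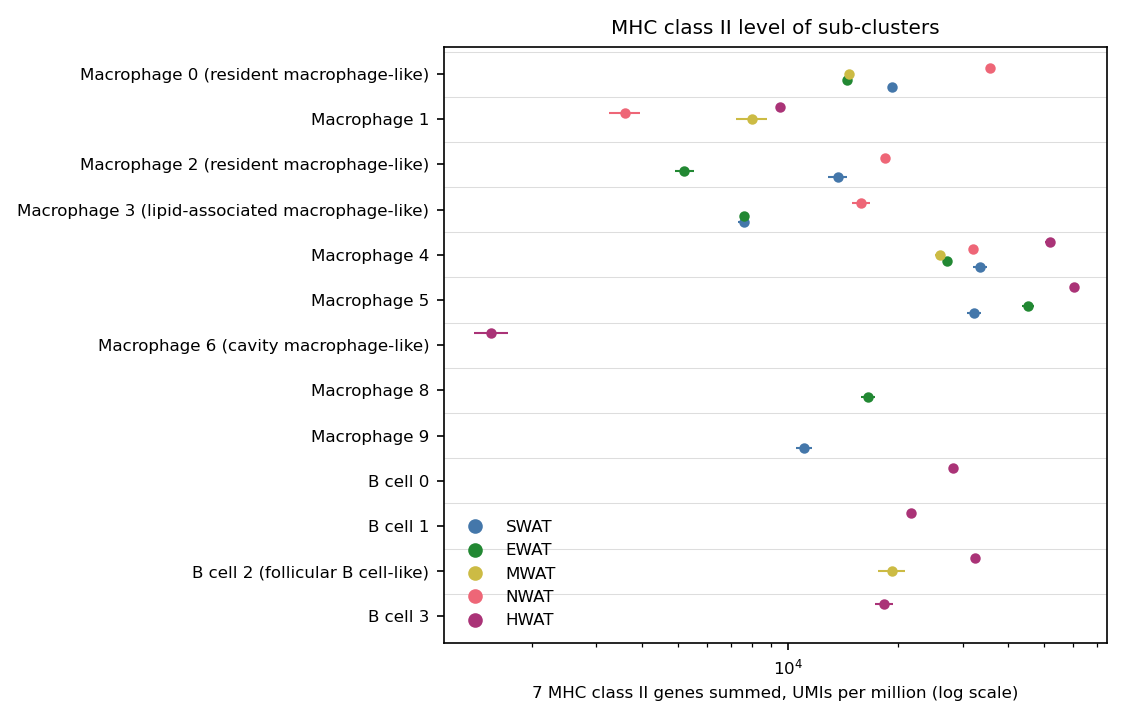
Summed level of the 7 genes in CPM (horizontal axis, log scale) for each macrophage and B cell sub-cluster with at least 30 nuclei in a library, coloured by depot, with 95% Poisson intervals as bars. HWAT points span 1551 CPM in cavity macrophage-like nuclei to 60363 CPM in macrophage sub-cluster 5.

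Resident macrophage-like nuclei also differed between depots. Sub-cluster 0, the larger of 2 named from Lyve1, Cd163, F13a1, Folr2 and related markers, measured 35584 CPM (34925 to 36251) in NWAT on 204 nuclei. The same sub-cluster measured 19202 CPM in SWAT, 14469.9 in EWAT and 14727 in MWAT. The NWAT value lay above the others for every gene of the 7, for example H2-Ab1 at 4679 CPM against 1668 to 2053. In the second resident macrophage-like sub-cluster (sub-cluster 2) the order was NWAT at 18364 CPM, SWAT at 13692 and EWAT at 5221. Most NWAT resident macrophage-like nuclei, 619 of them, lay in that second sub-cluster, which held 35 nuclei in SWAT and 85 in EWAT.

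Lipid-associated macrophage-like nuclei (Gpnmb, Mmp12 and Spp1 among the leading genes) lay below resident sub-cluster 0. They measured 7578 CPM (7309 to 7855) in SWAT and 7583 (7387 to 7784) in EWAT, values that could not be told apart, and 15841 CPM on 31 nuclei in NWAT. Within SWAT and EWAT this was below the resident sub-cluster 0 by non-overlapping intervals. The second resident macrophage-like sub-cluster was higher in SWAT, at 13692 CPM, but lower in EWAT, at 5221 CPM (4918 to 5538) on 85 nuclei. Sub-cluster 4, by contrast, was high in all 5 depots, from 26095 CPM in MWAT to 51849 in HWAT. The dendritic type 1-like sub-cluster (Clec9a, Cadm1), 107 nuclei over all libraries, measured 33688 CPM.

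Counted per nucleus, the same mixture appeared as a broad spread. After each nucleus of at least 1000 UMIs was thinned to 1000, the median macrophage-like nucleus held 10.0 UMIs of the 7 genes in SWAT, 8.00 in EWAT, 10.0 in MWAT, 14.0 in NWAT and 3.00 in HWAT. Nuclei with 20 or more made up 28.2% in HWAT and 41.8% in NWAT, and those with 0 made up 21.1% and 10.8%. B cell-like nuclei of HWAT were more even, with a median of 25.0 and 0.0602% at 0.

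B cell-like nuclei of HWAT held more class II RNA per UMI than macrophage-like nuclei of the same library. The summed level was 26932 CPM (26755 to 27109) against 15209 CPM, a ratio of 1.77 (1.75 to 1.79). Cd74 measured 18322 CPM against 8881 (ratio 2.06, 2.03 to 2.10) and was the only gene of the 7 past 2-fold, where 12.0% of all 11797 genes compared were 2-fold or more higher. H2-Aa stood at 1.55 times, H2-Eb1 at 1.31 and H2-Ab1 at 1.16 times the macrophage-like level. Ciita measured 108 CPM against 59.9, a ratio of 1.81 (1.47 to 2.22).

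With all macrophage-like nuclei counted, the 2 chains of the peptide exchange dimer lay on opposite sides of the macrophage-like level. H2-DMa was 1.65 times (1.47 to 1.86) higher in B cell-like nuclei, at 311 against 188 CPM, and H2-DMb1 was lower, at 144 against 244 CPM (ratio 0.593, 0.523 to 0.671). The H2-DMb1 ratio was 1.01 with doublets removed at 1.6% per 1000 nuclei and 1.02 at Leiden resolution 2. With macrophage sub-clusters 1 and 6 left out both chains were lower in B cell-like nuclei, H2-DMa at a ratio of 0.607 and H2-DMb1 at 144 against 842 CPM. H2-DMb2, the neighbouring paralog of H2-DMb1, measured 430.5 against 50.4 CPM, a ratio of 8.54 (7.04 to 10.5). How the authors' counting treated reads shared by these near-identical copies was not examined, so the pair is uncertain. H2-Oa and H2-Ob, which form the dimer that restrains H2-DM, stood at 10.1 (7.28 to 14.4) and 13.2 times (9.87 to 18.0). Cathepsin S (Ctss), which trims the invariant chain, was lower at 0.534, and the proteases Lgmn and Ctsl were at 0.183 and 0.326.

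Among the 10 further antigen-loading and accessory genes, 5 were 2-fold or more higher in B cell-like nuclei (H2-DMb2, H2-Oa, H2-Ob, H2-Eb2 and Cd83) and 2 were lower (Lgmn and Ctsl), where 18.4% of all genes were lower. Of 16 class II transcription factors and inducers, 2 were higher (Rfx5 at 17.5 against 7.72 CPM and Nfyb at 30.5 against 11.4) and 2 lower (Spi1 and Ifngr1). Of 6 co-stimulation genes, 3 were higher: Icosl, Cd274 and Pdcd1lg2, the last at 21.4 times (10.2 to 53.8) on 225 and 7 counts.

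The direction of the B cell-like difference changed with the macrophage-like nuclei it was set against. The ratio was 1.52 to 3.09 over the 11 other settings of filtering, clustering and summing tried, and with macrophage sub-clusters 1 and 6 left out it turned to 0.591 (0.581 to 0.600). The 227 macrophage-like nuclei then left were mostly sub-clusters 5 (118 nuclei) and 4 (42), both high in the 7 genes. A fall in the ratio was thus built into that setting. In NWAT and MWAT, where B cell-like nuclei numbered 67 and 63, the summed ratios were 0.909 (0.872 to 0.947) and 1.06, the latter with an upper bound of 1.13. In NWAT 0 of the 7 genes passed 2-fold, where 18.5% of all genes were higher and 20.7% lower. In MWAT Ciita was higher (285 against 140.0 CPM on 18 and 88 counts) and H2-DMb1 lower (111 against 331 CPM), where 13.3% of all genes were higher and 21.8% lower.

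Within HWAT B cell-like nuclei, the follicular B cell-like sub-cluster (643 nuclei, with Cr2 and Fcer2a) measured 32362 CPM (31963 to 32764). The other 2 large B sub-clusters measured 28202 and 21633 CPM, and 32 nuclei led by cell cycle genes 18287 CPM. Ciita did not keep that order: it was 163 CPM in the follicular-like nuclei, 122 in the lowest of the large sub-clusters and 72.6 in the one between.

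Most of the class II UMIs of a library came from these immune nuclei. Macrophage-like nuclei, 3.32% to 10.6% of the nuclei, gave 78.0% of the UMIs of the 7 genes in SWAT, 76.1% in EWAT, 58.8% in MWAT and 79.3% in NWAT. In HWAT they gave 22.5%, and B cell-like nuclei, 21.9% of the nuclei, gave 59.9%. Cd74 made up 68.0% of the class II UMIs in HWAT B cell-like nuclei against 50.2% to 58.4% in macrophage-like nuclei of the 5 depots.

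**Figure D3:**
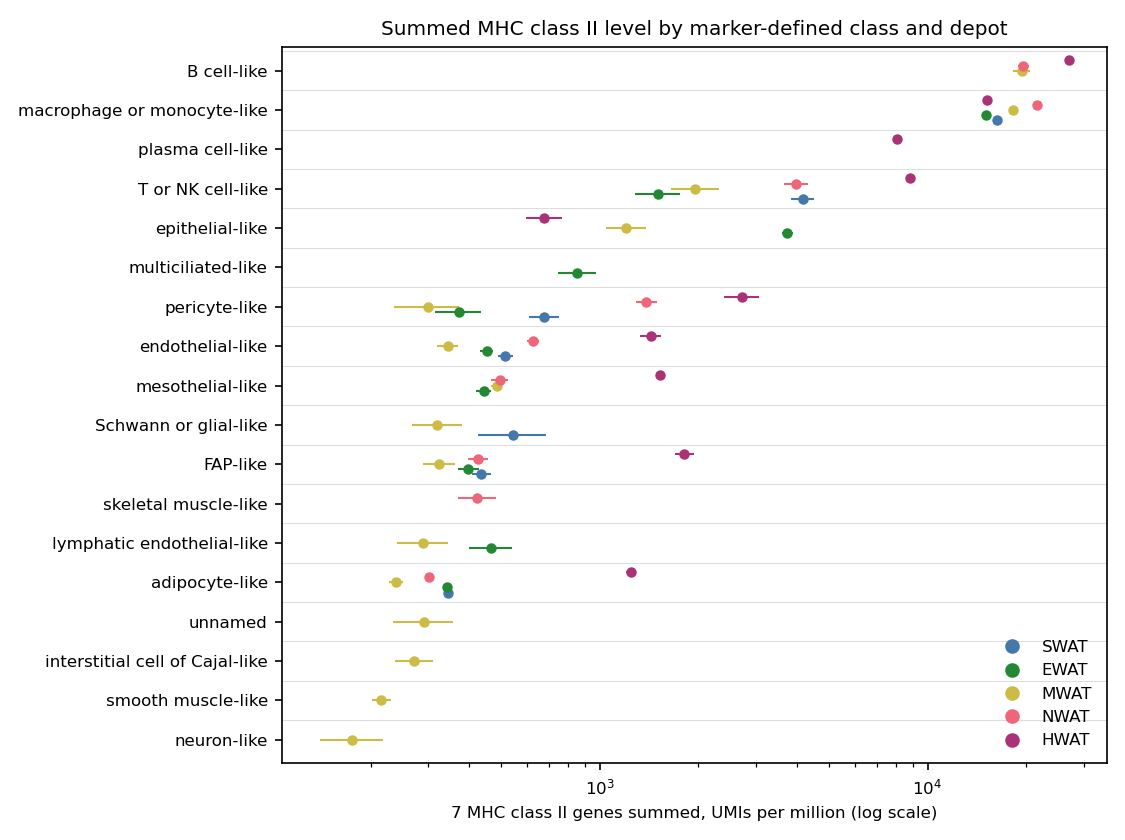
Summed level of the 7 genes in CPM (horizontal axis, log scale) for every class with at least 50 nuclei in a library, coloured by depot, with 95% Poisson intervals as bars. B cell-like and macrophage-like sums lie between 15065 and 26932 CPM, adipocyte-like sums between 239 and 1243 CPM, and HWAT is the rightmost point in most classes that it shares with other depots.

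Adipocyte-like nuclei carried a low level that was highest in HWAT. The sums were 345 CPM in SWAT, 342 in EWAT, 239 in MWAT, 302 in NWAT and 1243 in HWAT. The class held unlike clusters. Cluster 11, led by Fasn, Scd1 and Hbb-bs, measured 1127 CPM in SWAT, 2022 in EWAT (473 nuclei), 634 in MWAT, 1659 in NWAT and 2593 in HWAT (60 nuclei). The largest EWAT cluster (5506 nuclei) measured 289 CPM. RNA freed from broken cells reaches every droplet, so each class was set against the level that free RNA would bring. That level was taken from short transcripts chosen to mark the source cells. These were Cd79a, Ms4a1, Ighm and others for B cells, and Lyz2, C1qa, Tyrobp and others for macrophages. Their CPM in the class over that in the source class of the same library, times the source level of each gene, gave the free-RNA level. In SWAT and EWAT, with under 50 B cell-like nuclei, that level came from the macrophage-like source alone. A class that makes some of these transcripts itself would get too high a free-RNA level.

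Adipocyte-like sums stood at 0.939 of the free-RNA level in SWAT, 1.01 in EWAT, 0.739 in MWAT, 0.755 in NWAT and 0.411 in HWAT. In HWAT, where plasma cell-like nuclei also make immunoglobulin, leaving the 3 immunoglobulin genes out of the traced set gave 1.20, and long traced transcripts gave 2.08. Without those genes 5 of the 6 non-immune sums of HWAT stood at 1.09 to 1.32 and epithelial-like nuclei at 0.575. In these epithelial-like nuclei the short traced macrophage transcripts summed to 1739.5 CPM, against 934 CPM in adipocyte-like nuclei of HWAT. Whether the epithelial-like nuclei make any of them was not tested. Pericyte-like nuclei of HWAT (65 nuclei) stood at 1.27 without the immunoglobulin genes and 2.23 with long transcripts. Over the 36 sums of non-immune classes the median was 0.938, and 4 sums exceeded 2 times the free-RNA level: epithelial-like nuclei of EWAT and of MWAT, multiciliated-like nuclei of EWAT and mesothelial-like nuclei of MWAT.

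**Figure D4:**
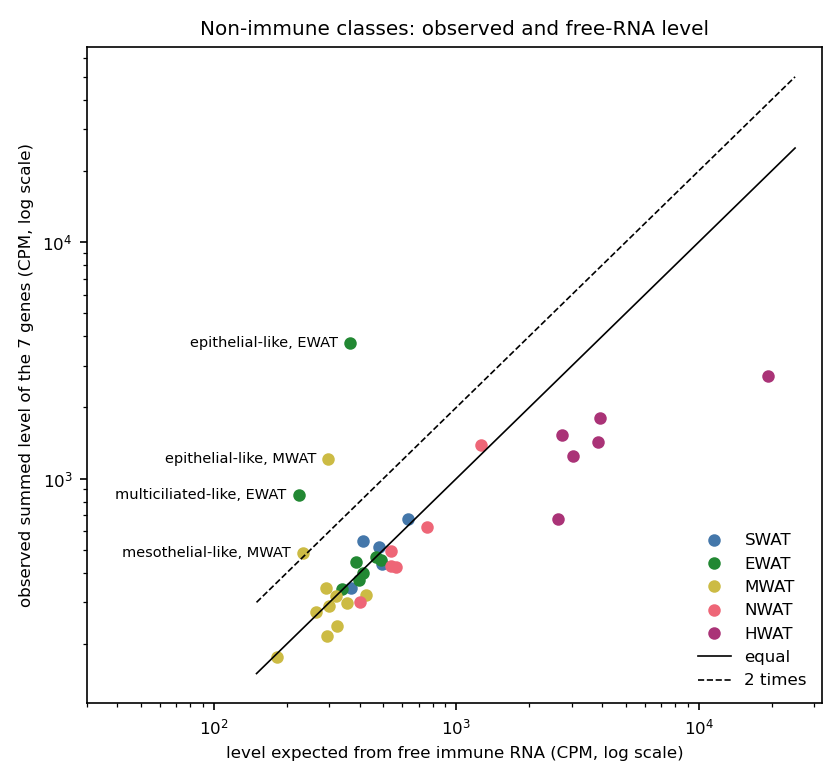
Observed summed level of the 7 genes against the level expected from free immune RNA (both in CPM, log scales) for the 36 non-immune class sums, 1 point each, coloured by depot. The solid line marks equality and the dashed line 2 times. EWAT epithelial-like nuclei lie farthest above it, at 3739.6 against 366 CPM, and all 6 HWAT points lie below the solid line with the immunoglobulin genes traced, as drawn, while 5 of the 6 ratios exceed 1 without them.

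EWAT epithelial-like nuclei, 319 nuclei in 1 cluster led by Adcy8, Rmst and Pkhd1, were the clearest case. Their summed level was 3739.6 CPM (3607 to 3875), 10.2 times the free-RNA level and 10.9 times (10.5 to 11.4) that of adipocyte-like nuclei of EWAT. Adipocyte-like cluster 11 of EWAT was closer, at 2022 CPM (1905 to 2145). All 7 genes were 2-fold or more above the adipocyte-like level, where 23.6% of all genes were. Cd74 measured 2205 CPM against 152, H2-Aa 599.8 against 71.8, H2-Ab1 362 against 42.6 and H2-Eb1 354 against 39.3. Both exchange chains were above too, H2-DMa at 85.3 against 27.7 CPM and H2-DMb1 at 100.2 against 7.06 CPM. Ciita measured 33.4 CPM on 27 counts against 1.18, a ratio of 28.4 (15.9 to 51.0).

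Short macrophage transcripts were close to the adipocyte-like level in these nuclei, short B cell transcripts were below it and long transcripts of both were above it. The short traced macrophage transcripts summed to 320.3 CPM in EWAT epithelial-like and 296 CPM in EWAT adipocyte-like nuclei, and the short traced B cell transcripts to 28.4 and 57.8 CPM. Longer traced transcripts summed to 359.9 against 136 CPM for macrophages and 120.0 against 59.2 CPM for B cells, and with the long set the class II sum was 6.31 times the free-RNA level. Macrophage markers summed to 261 CPM against 216 CPM, and T or NK cell markers, 6 of 10 of them at 0, to 76.7 against 2.45 CPM. The part of these cells in the result was not tested. Of the 10 dendritic markers, 6 were at 0 and the rest summed to 38.3 CPM against 32.8 CPM. The 7 epithelial markers, which were used to name the class, summed to 2582 CPM against 19.7 CPM (Epcam 355 CPM and Pax8 318 CPM in the epithelial-like nuclei). All 7 were above 0 in both classes. After thinning, 92.1% of these nuclei held a UMI of the 7 genes, the median was 3.00 and 0% held 20 or more, against 29.8% of EWAT macrophage-like nuclei. Of 7 accessory genes with enough counts, 4 were 2-fold or more higher, among them Ifi30 at 7.75 times (6.03 to 9.88) and H2-DMb2 at 23.8 times (12.1 to 46.5), and the other 2 rested on 5 counts or fewer in these nuclei. Of 10 class I genes 3 were 2-fold or more higher (Psmb8, Psmb9 and H2-K1), a share near that of all genes.

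The other 3 sums were smaller. Epithelial-like nuclei of MWAT (78 nuclei led by Reg3b, Zg16 and Apoa1) measured 1206 CPM (1046 to 1383), 4.06 times the free-RNA level by short and 1.04 times by long traced transcripts, on 204 counts. Of the 6 members with enough counts, 5 were 2-fold or more above the adipocyte-like level of MWAT, where 19.3% of all genes were. Multiciliated-like nuclei of EWAT measured 854 CPM (747 to 973), 3.82 times by short and 2.51 times by long traced transcripts, with 0 Ciita counts. Mesothelial-like nuclei of MWAT measured 485 CPM, 2.07 times by short and 0.228 times by long traced transcripts, with 4 of 6 members 2-fold or more above the adipocyte-like level where 25.8% of all genes were. That class held unlike clusters, the larger (2389 nuclei) at 628 CPM (599.7 to 657) and the next (1386 nuclei) at 208 CPM (186 to 232), below the free-RNA level of 234 CPM for the class. Epithelial-like nuclei of HWAT, led by other genes (Scgb1a1, Bpifa1), measured 678 CPM, below the 1243 CPM of adipocyte-like nuclei of HWAT.

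Pericyte-like nuclei of NWAT stood well above adipocyte-like nuclei and close to the free-RNA level. They measured 1389 CPM, 4.59 times (4.25 to 4.96) the adipocyte-like level, with H2-Aa at 324 against 57.5 CPM. The traced macrophage transcripts were higher in step, at 1273 against 359 CPM, and the sum was 1.10 times the free-RNA level, and Ciita had 0 counts.

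**Figure D5:**
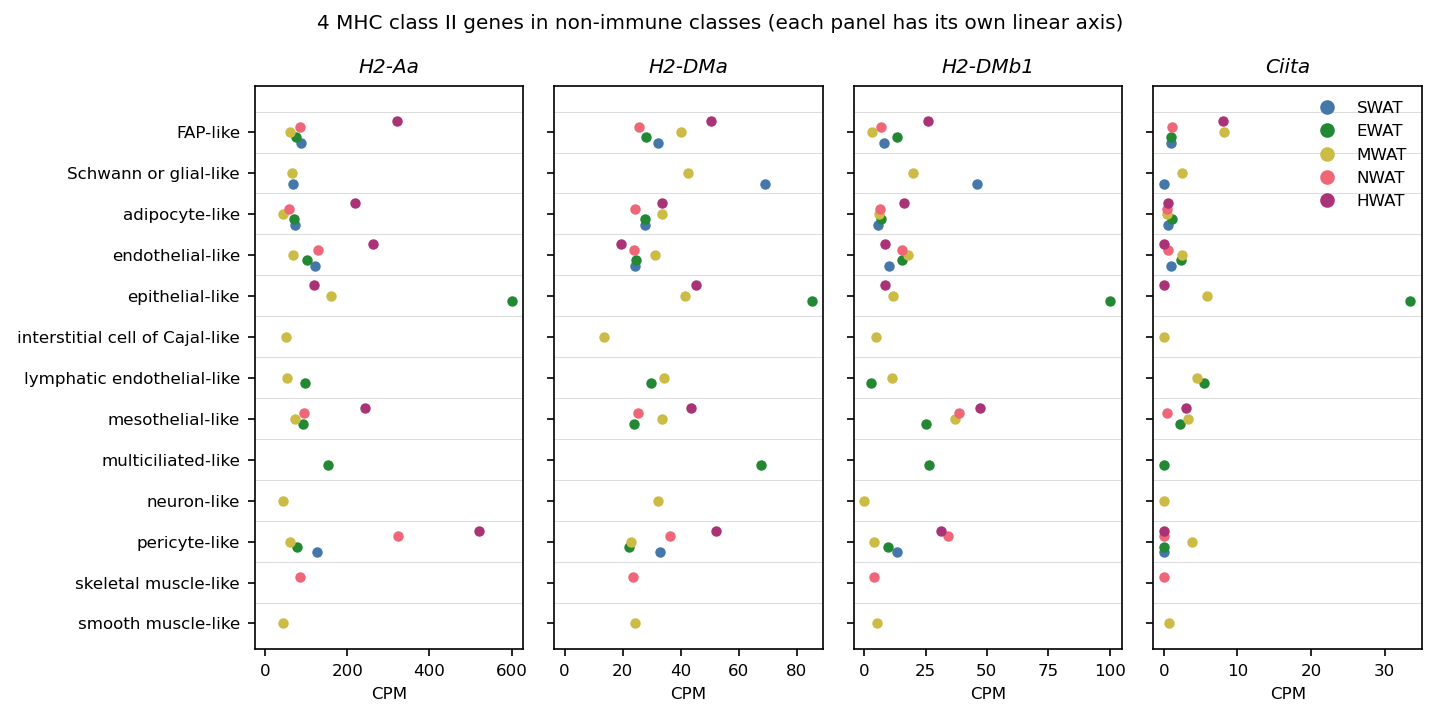
Levels of H2-Aa, H2-DMa, H2-DMb1 and Ciita in CPM (horizontal axes, linear, 1 per gene) in each non-immune class, coloured by depot, 1 point per library. EWAT epithelial-like nuclei are the rightmost point for all 4 genes, HWAT points of adipocyte-like nuclei stand apart for H2-Aa (219 CPM) but not for H2-DMa (33.6 CPM), and mesothelial-like nuclei are right of adipocyte-like nuclei for H2-DMb1.

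H2-DMa exceeded the free-RNA level in more non-immune sums than the other genes of the 7. In adipocyte-like nuclei it measured 27.7 CPM in SWAT, 27.7 in EWAT, 33.7 in MWAT, 24.3 in NWAT and 33.6 in HWAT. H2-Aa in the same nuclei measured 73.1, 71.8, 45.1, 57.5 and 219 CPM. In these nuclei H2-DMa was at about the same level in HWAT and MWAT, where H2-Aa was highest in HWAT, and H2-DMa was 4.01 to 7.88 times the free-RNA level outside HWAT. In FAP-like nuclei H2-DMa was highest in HWAT, at 50.3 CPM on 25 counts, as in mesothelial-like nuclei, at 43.5 against 23.8 to 33.4 CPM. Over all non-immune nuclei it exceeded 2 times that level in 29 of the 36 sums, in 35 of 36 without the immunoglobulin genes and in 21 with long traced transcripts, while H2-DMb1 did so in 11, H2-Ab1 in 5, H2-Aa, H2-Eb1 and Cd74 in 3 each and Ciita in 2. Brd2, which H2-DMa overlaps on the opposite strand, measured 17.7 to 79.5 CPM over the same sums against 13.7 to 85.3 CPM for H2-DMa, and its part in the H2-DMa counts was not tested.

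H2-DMb1 was higher in mesothelial-like than in adipocyte-like nuclei wherever both were present. It measured 25.1 against 7.06 CPM in EWAT (ratio 3.55, 2.68 to 4.68), 37.2 against 6.03 in MWAT (6.16, 4.32 to 8.99), 38.8 against 6.49 in NWAT (5.97, 4.49 to 7.89) and 47.2 against 16.1 in HWAT (2.92, 2.21 to 3.92). Its partner chain H2-DMa differed less, with ratios of 0.861 (0.671 to 1.09), 0.993 (0.803 to 1.22), 1.04 (0.776 to 1.38) and 1.29 (1.05 to 1.61) in the same order. Ciita stayed at 0.462 to 3.34 CPM in mesothelial-like nuclei.

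Ciita was low in most non-immune nuclei. It had 0 counts in 11 of the 36 non-immune sums, a median of 0.859 CPM and, in adipocyte-like nuclei, 0.476 to 1.18 CPM. After EWAT epithelial-like nuclei, FAP-like nuclei (fibro-adipogenic progenitors) of MWAT measured 8.21 CPM on 8 counts. In HWAT adipocyte-like nuclei it measured 0.538 CPM on 2 counts.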

How the data were processed

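Each depot was 1 library of nuclei from pooled mice. The deposited files hold raw UMI counts for each gene in each nucleus, not normalized. Per the file headers the version of Cell Ranger was 6.0.1, and the submitters' processing notes name mm10 as the build. The annotation release is not given in the sources used here. Every barcode had at least 500 UMIs. Nuclei with at least 200 genes and at most 10% mitochondrial UMIs were kept (75891 of 76040), and 9642 likely doublets were removed by simulated-neighbour score at 0.8% per 1000 nuclei. Counts were log-normalised, reduced to 2000 variable genes (the 7 genes and pathway lists left out) and 40 components, and clustered with leidenalg 0.10.2 at resolution 1. Clusters were named from marker lists, and 2 clusters (383 nuclei) stayed unnamed. Counts were then summed per class and library.

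The 7 genes were always named, pathway genes were counted when they had at least 20 counts and named when past 2-fold, and the 10 genes most like the summed 7 were named. The members and lists were chosen with earlier results of these data known. The depot difference and the free-RNA level were tested on simulated data, and filtering, doublet removal, clustering and naming were not. In that simulation neither source class held the traced transcripts of the other. In the data, macrophage-like nuclei of HWAT held 4596 CPM of the short B cell ones. Python 3.11.15, numpy 2.4.6 and scipy 1.17.1 were used. Gene positions came from GENCODE vM21. The alternatives were other clustering, filtering, doublet removal, summing, totals and free-RNA settings.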

Additional observations from a re-analysis of the deposited data

Results flagged for a closer look

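The B cell-like over macrophage-like ratio went opposite ways in different depots, with each counting interval on its own side of 1. The summed 7 genes were at 0.909 (0.872 to 0.947) in NWAT and 1.77 (1.75 to 1.79) in HWAT. H2-Aa was at 0.769 in NWAT, 0.832 in MWAT and 1.55 in HWAT. H2-Ab1 was at 0.575 in NWAT, 0.795 in MWAT and 1.16 in HWAT. H2-Eb1 was at 0.697 in NWAT, 0.752 in MWAT and 1.31 in HWAT. The difference between depots was not tested, since each depot was 1 library and only 67 and 63 nuclei were B cell-like in NWAT and MWAT. With macrophage sub-clusters 1 and 6 left out the HWAT ratios turned to 0.591 for the sum, 0.511 for H2-Aa, 0.373 for H2-Ab1 and 0.413 for H2-Eb1, on the same side of 1 as NWAT. That setting leaves out nuclei low in the 7 genes, so a fall in these ratios was built in.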

How the results depend on the processing

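Depot comparisons could not be paired because each depot was 1 library. The NWAT over EWAT ratio of the summed 7 genes in macrophage-like nuclei was 1.30 with doublets removed at 1.6% per 1000 nuclei, 1.40 with nuclei thinned to 1000 UMIs, 1.49 at Leiden resolution 2, 1.50 as the mean of nuclei and 1.74 with each library clustered by itself. It was 1.53 with macrophage sub-clusters 1 and 6 left out. The count of 2-fold depot differences, 1 as reported, was 0 with no doublets removed, as the mean of nuclei and with thinning, 5 at resolution 2, 6 at 1.6% and 7 without sub-clusters 1 and 6. The matching shares of all genes were not computed in these settings. The HWAT B cell-like ratio of 1.77 became 1.52 with no doublets removed, 3.09 at 1.6%, 1.74 with at least 500 genes, 3.07 at resolution 2, 1.61 as the mean of nuclei, 1.59 with thinning, and 1.84 both without mitochondrial and immunoglobulin genes and with the adipocyte-like level taken off. Without sub-clusters 1 and 6 it reversed to 0.591, with H2-Aa at 0.511, H2-Ab1 at 0.373, H2-Eb1 at 0.413, H2-DMa at 0.607, Cd74 at 0.707 and Ciita at 0.400. H2-DMb1 in the same ratio moved from 0.593 to 1.01 at 1.6% and 1.02 at resolution 2. With no doublets removed, 2 non-immune sums exceeded 2 times the free-RNA level, and EWAT epithelial-like nuclei took no class name there. Mesothelial-like nuclei of MWAT fell to 0.228 with long traced transcripts. The cause of these changes was not tested, except that leaving out sub-clusters 1 and 6 removes nuclei low in the 7 genes. Leaving out those sub-clusters and the immunoglobulin genes were choices made after seeing the data. In all, 81 of 745 recomputed values changed by over 1.5 times and 10 reversed. Depth limits Ciita most, which had 25 counts or fewer in many sums.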

Other observations

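T or NK cell-like nuclei of HWAT measured 8858 CPM of the 7 genes (8609 to 9113), with Ciita at 16.7 CPM on 9 counts, and plasma cell-like nuclei of HWAT 8081 CPM (7837 to 8330.4), with Ciita at 11.7 CPM on 6 counts. Without the immunoglobulin genes these sums were 1.48 and 1.54 times the free-RNA level. They were 1.70 and 3.16 times that level with long traced transcripts, and 0.301 and 0.0437 times with all short ones. In the other depots T or NK cell-like sums ran from 1504 CPM in EWAT to 4166 CPM in SWAT. These stood at 0.444 to 1.28 times the free-RNA level without the immunoglobulin genes. With long traced transcripts they stood at 0.576 times in EWAT to 4.38 times in SWAT, so the ratio depended on the traced set. The short traced macrophage transcripts summed to 2961 CPM in T or NK cell-like nuclei of EWAT, against 296 CPM in adipocyte-like nuclei. Whether T or NK cell-like nuclei make some of them, which would set their free-RNA level too high, was not tested.

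Over the 51 class-by-library sums, the genes whose log2(CPM + 10) was most like that of the summed 7 genes were Ctss (Pearson r 0.947), Ncf4 (0.938), Ptpn6 (0.931), E330020D12Rik (0.915), Ms4a6c (0.914), Ly86 (0.908), Cd37 (0.905), AB124611 (0.904), Cybb (0.897) and Wdfy4 (0.890). Over the 24 macrophage sub-cluster-by-library sums of at least 30 nuclei they were Clec4b1 (0.887), Coro1a (0.853), Ccr2 (0.821), Dcaf12 (0.811), Fam107b (0.807), Pip4k2a (0.792), Batf3 (0.789), Slamf9 (0.788), Cyp4f18 (0.779) and Tacc1 (0.771). Clec4b1 and Ccr2 ran from 0 to 616 and from 0 to 1198 CPM over those sums. Sums of 1 library share its depth and free RNA, so these correlations are descriptions.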
